A study of Arabidopsis thaliana with 28 samples.

Results

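Shoots of wounded Arabidopsis thaliana were compared with roots 12 h after wounding. The 4 arrays were chosen by their labels, which give the organ and the time, and not by any measured value: 2 shoot arrays and 2 root arrays, out of 28 in the series. All plants were of the accession Col-0 with no mutant allele named, grown on Murashige and Skoog medium in 16 h days, and punctured with pins on day 16 after 3 h of light. The 12 h harvest thus fell in hour 15 of the light period. The other 24 arrays, 2 per group, are shoots and roots of plants wounded in the same way and harvested 0.25, 0.5, 1, 3, 6 and 24 h later, and they served to ask which organ differences at 12 h differed from those at the other times. At 12 h, the only harvest late in the light period, time since wounding and time of day cannot be told apart. Whether shoots or roots were punctured is not stated in the labels, and unwounded plants were not analysed here. Nothing in them says that the 2 replicates came from separate plants or cultures, so a p-value here measures spread among these arrays alone, and that spread may be technical.

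Shoots of a rosette plant consist largely of leaves, whose mesophyll cells fix carbon in chloroplasts, store part of it as starch during the day and export sucrose through the phloem. Roots live on that sugar, take up water and ions, hold plastids without a photosynthetic apparatus, and build walls with peroxidases, lignin and suberin. Towards the end of the day leaves are rich in starch and the plant clock is in its evening phase.

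The values are MAS5 signals of ATH1 arrays, a microarray with short probes grouped in probe sets, most of which stand for 1 gene. Signals were set on the scale log2(signal + 10.7), and every difference below is shoots minus roots on that scale unless stated otherwise, so a positive value is higher in shoots. A probe set is called when its adjusted p from limma, a linear model fitted over all 28 arrays, is under 0.05. Across probe sets, which are no independent replicates, both arrays of a group correlated with r of 0.967 to 0.992. Precision is limited by how few arrays there are. The ratio of signal at the 3-prime end to that at the 5-prime end, a sign of RNA quality, differed between the organs for 2 of 3 controls. For the ubiquitin control it was 2.63 and 2.49 in 12 h shoots against 1.52 and 1.65 in 12 h roots, and for the actin control 3.00 and 3.68 against 2.28 and 2.24. For the GAPDH control it was 1.08 and 1.25 in shoots against 1.21 and 1.2 in roots, which overlap. At 24 h, one of the other times, the actin ratio of the shoot arrays reached 6.17. In shoots the ubiquitin ratio also differed over time, with 1.55 to 2.11 at 0.25 to 3 h and 2.27 to 2.63 at 6 to 24 h. The part of these ratios in the differences was not tested. In whole organs, fewer cells of a type and less RNA per cell cannot be told apart, which holds for every difference below.

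At 12 h most of the genes measured differed between the organs. Of 16263 probe sets kept, limma called 11498 (70.7%), with 4125 (25.4%) higher in shoots and 7373 (45.3%) lower in shoots. At least 2-fold differences were found for 2678 (16.5%) higher and 3168 (19.5%) lower. The 2 shoot arrays did not overlap the 2 root arrays in 14103 probe sets (86.7%), so a gene whose organs are separate is the usual case here. Differences of at least 16-fold were more often in favour of shoots, with 351 against 142 in favour of roots. The median over all probe sets was -0.28, so a probe set that follows the bulk sits slightly below 0. The 3 measured genes that often serve as a steady reference lay near that median: AT2G28390 at -0.08, PEX4, a peroxisomal ubiquitin-conjugating enzyme, at -0.33 and AT4G34270 at -0.44. The value of AT2G28390 turned to 0.05 after quantile normalization and was not called in either setting. PEX4 and AT4G34270 were themselves called lower in shoots. After quantile normalization AT4G34270 kept its call (-0.30) and PEX4 did not (-0.26).

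The markers measured followed the organ labels. Of the shoot lists, 3 of 3 light harvesting, 7 of 7 photosystem, 3 of 3 Calvin cycle and 2 of 2 guard cell genes were higher in shoots, and 2 of 3 genes of the shoot meristem and leaf polarity. Of the root lists, 2 of 2 root hair genes, 1 of 1 endodermis gene, 2 of 2 stele and pericycle genes and 1 of 1 root tip gene were lower in shoots. No gene of the lists for cuticle, suberin, nutrient uptake and aquaporins passed the filter under a name. A gene passes that filter when it is high in only 1 organ, so counts of list members here and below describe the genes measured and do not stand for whole pathways. Each such count of calls at 12 h stands beside 25.4% higher and 45.3% lower in shoots among all probe sets.

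**Figure D1:**
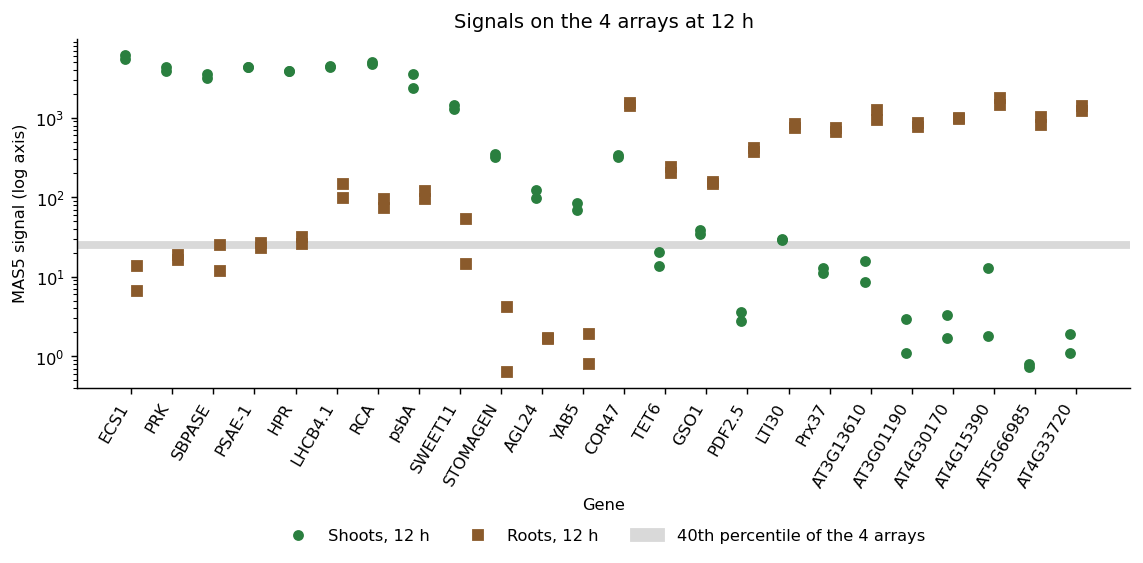
MAS5 signals (log axis) of 24 genes on each of the 4 arrays at 12 h, with shoots as circles left of roots as squares; the grey band spans the 40th percentile of the 4 arrays. For 12 genes both circles lie above both squares, from ECS1 to YAB5, and for 12 both lie below, from COR47 to AT4G33720, most of these with shoots under the band.

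Genes of the light reactions were far higher in 12 h shoots than in 12 h roots. LHCB4.1, an antenna protein of photosystem II, had signals of 4496 and 4418 in shoots against 97.7 and 146 in roots, a log2 difference of 5.10 ± 0.22 (adjusted p = 1.66e-14). The other 2 genes of that antenna protein had nearly the same difference, 5.4 for LHCB4.2 and 5.09 for LHCB4.3, although their levels over time moved in opposite directions, as described further on. Of 38 loci on the list of photosystem and electron transport subunits 7 were measured, all called higher, with a median of 5.83 beside -0.28 over all probe sets. PSAE-1, a subunit of photosystem I, had 4308 and 4366 in shoots against 26.7 and 23.3 in roots (6.93 ± 0.28). PSBY of photosystem II differed by 6.01, PSAN of photosystem I by 5.93, PSBW and PSB27 of photosystem II by 5.83 and 5.24, and ATPC1, a subunit of the chloroplast ATP synthase, by 4.98. In roots ATPC1 still had 96.7 and 149.

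Carbon fixation and its side paths followed. PRK, the phosphoribulokinase that makes the acceptor of carbon dioxide, had 3888 and 4408 in shoots against 16.2 and 18.8 in roots (7.21 ± 0.17, adjusted p = 8.15e-19). SBPASE, a bisphosphatase of the Calvin cycle, had 3210.3 and 3571 against 11.9 and 24.9 (6.91 ± 0.18). RCA, which activates Rubisco, had 4814 and 5053 against 72.7 and 94.6 (5.72 ± 0.18). For all 3 the organs are separated by far more than the replicates, and the root signals of PRK and SBPASE lie below the 40th percentile of their arrays (23.4 to 27.2 on the 4 arrays), where a signal is close to the lowest measured and the size of the difference depends on the offset.

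Photorespiration recovers carbon lost when Rubisco takes oxygen. Of 17 loci on its list 4 were measured and 4 called higher (median 4.72). HPR, the peroxisomal hydroxypyruvate reductase, had 3856 and 3908 in shoots against 26.2 and 31.5 in roots (6.63 ± 0.20). AT1G32470 and AT1G11860, listed for the same pathway, differed by 5.96 and 3.48, and AT1G80380 by 1.41, with 1059.8 and 1138 in shoots against 326 and 505 in roots. The range within this list is thus wide, and AT1G80380 was clearly present in roots.

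Genes of chlorophyll synthesis were higher in shoots by a wide range. Of 17 loci 5 were measured and 5 called higher (median 3.77). The smallest differences were at early steps, which also serve heme: GSA1, the aminotransferase that forms aminolevulinate, by 1.62 ± 0.13, with 573 and 499 in shoots against 165 and 168 in roots, and HEMB1, aminolevulinate dehydratase, by 2.34. Steps that belong to chlorophyll alone had larger ones: CHLM, the methyltransferase of magnesium protoporphyrin, by 3.77, CHLI2, a magnesium chelatase subunit, by 4.43 and PORB, the light-dependent protochlorophyllide reductase, by 4.52. CHLI2 had 225 and 257 in shoots against 1.01 and 0.983 in roots. With 5 genes this order is a description and was not tested.

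Genes encoded in the plastid were also higher in shoots, by less. The 33 photosynthesis genes of the plastid genome were all called higher, with a median of 2.57 and a range of 1.24 to 4.62, beside 25.4% of all probe sets. psbA, the D1 protein of photosystem II, had 2344 and 3568 in shoots against 96.5 and 119.9 in roots (4.62 ± 0.34). rbcL, the large subunit of Rubisco, had 506 and 547 against 75.1 and 55.8 (2.83 ± 0.22). The smallest of the 33 was petN of the cytochrome b6f complex, with 213 and 197 against 73.6 and 88.1 (1.24 ± 0.43). Its arrays do not overlap, but its call was lost without shoots 12 h replicate 1 (1.19), shoots 12 h replicate 2 (1.29) or roots 12 h replicate 1 (1.13).

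Plastid genes outside photosynthesis proper did likewise. The 10 ndh genes, for a complex of cyclic electron flow, were all called higher (median 2.99), ndhJ with 1010.0 and 1333 in shoots against 16.2 and 30.0 in roots (5.15). The 24 genes of plastid gene expression, ribosomal proteins and polymerase subunits among them, were all called higher too (median 2.31), between 1.34 for rps14 and 3.49 for rpl33. rpl33 had 3173 and 3219.7 in shoots against 271 and 279.8 in roots, so it was not low there. Of 11 measured genes of the mitochondrial genome 0 were called higher and 4 lower at 12 h (median -0.38, near the bulk). Among all probe sets 25.4% were called higher and 45.3% lower, so the lower calls do not set this group apart. The 4 were ccb382 at -1.48, ccb452 at -0.98, nad5 at -0.96 and nad9 at -0.65. The direction of nad4 (0.14), nad4L (-0.08) and nad1 (-0.10), which were not called, turned after quantile normalization.

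**Figure D2:**
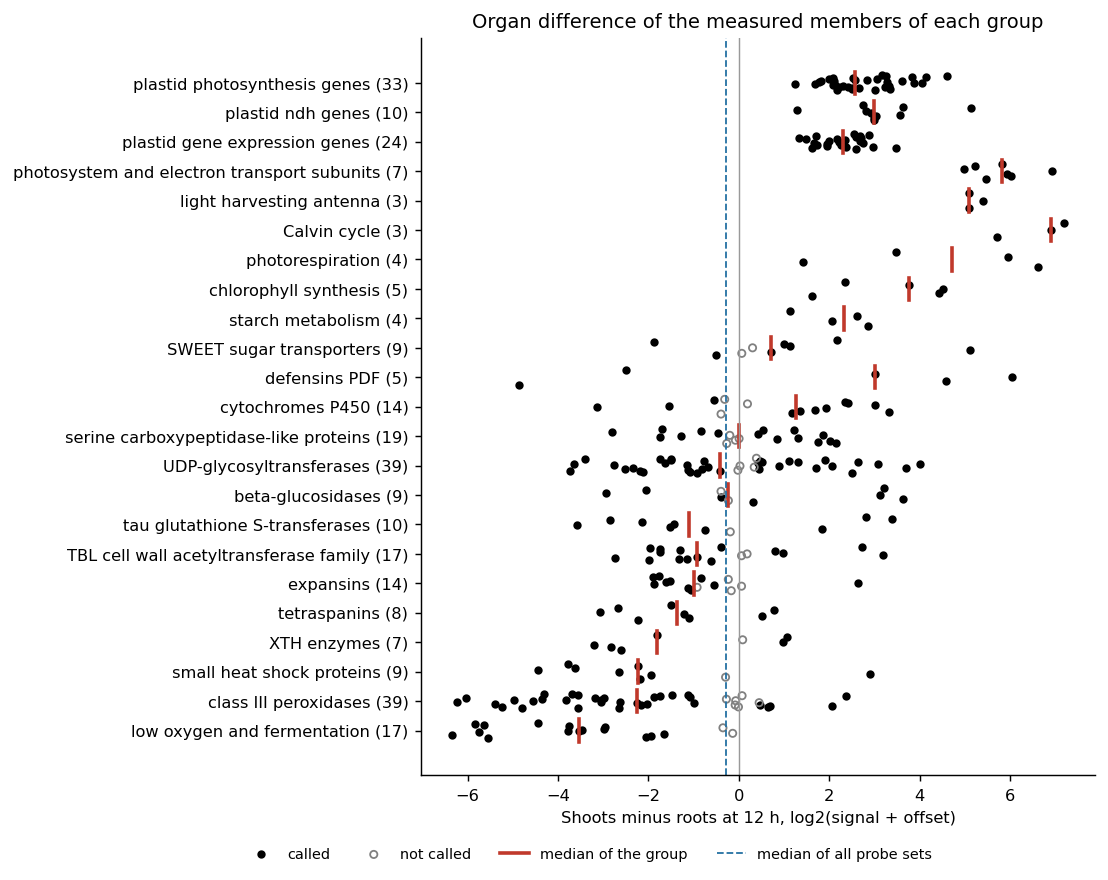
Shoots minus roots at 12 h on the log2(signal + 10.7) scale for the measured members of 23 gene groups, the number of members in brackets; filled points passed the test, red bars are group medians and the dashed line is the median of all probe sets, -0.28. Photosynthesis groups of nucleus and plastid lie wholly above 0, peroxidases and low oxygen genes mostly below, and glycosyltransferases and carboxypeptidase-like proteins on both sides.

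The 12 largest differences in favour of shoots, among probe sets with 1 gene, were led by ECS1, a cell wall protein, with 6267 and 5491 in shoots against 6.64 and 13.7 in roots (8.16 ± 0.35, adjusted p = 3.24e-13). PRK, PSAE-1, SBPASE and HPR were among them. The other 7 have no symbol in the annotation used and are given by locus: AT1G23130 (7.20), AT1G09310 (7.16), AT2G10940 (6.91), AT2G25510 (6.71), AT5G38980 (6.69), AT3G48420 (6.64) and AT2G41090 (6.63). AT2G25510 had 5778 and 6075 in shoots and still 47.8 and 44.6 in roots. In 9 of these 12 both root signals were under the 40th percentile, so the order among the 12 is not firm. All 12 kept their call in each alternative run, the removal of each 12 h array included.

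Apart from PHV, the genes of leaf identity and stomata named here were close to the lowest signals in roots. STOMAGEN, a peptide from the mesophyll that promotes stomata, had 321 and 347 in shoots against 4.18 and 0.630 in roots (4.73 ± 0.15). FMA, a transcription factor of guard cell fate, had 90.8 and 74.6 against 7.51 and 11.1 (2.23 ± 0.15). YAB5, a YABBY factor of the lower leaf side, had 84.0 and 70.0 in shoots against 0.808 and 1.90 in roots (2.86 ± 0.17). PHV, a factor of the upper leaf side that also acts in vascular tissue, was not called (0.16). AGL24, a MADS-box promoter of flowering, had 99.0 and 122 in shoots against 1.68 and 1.65 in roots (3.29 ± 0.14).

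Starch genes were higher in shoots at this hour, 4 of 4 measured of 21 loci (median 2.33). PWD, the phosphoglucan, water dikinase that opens starch granules for breakdown, had 804 and 829.7 in shoots against 93.2 and 113 in roots (2.87 ± 0.16). DPE1, the plastid disproportionating enzyme, had 272 and 276 against 54.6 and 60.7 (2.06 ± 0.17). SBE2.2, a starch branching enzyme, differed by 2.61 and APL3, a large subunit of ADP-glucose pyrophosphorylase, by 1.12, with 42.3 and 35.0 in shoots against 13 and 10.9 in roots.

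SWEET transporters, which let sugars pass membranes, went both ways. Of 14 with a probe set 9 were measured, of which 5 were called higher and 2 lower in shoots (median 0.71), beside 25.4% and 45.3% of all probe sets. SWEET11, which loads sucrose into the leaf phloem, had 1289.7 and 1459.6 in shoots against 14.4 and 52.8 in roots (5.11 ± 0.29). SWEET1, a glucose transporter, differed by 2.17 and SWEET2, of the vacuole membrane, by 1.13. The vacuolar transporters SWEET16 and SWEET17 were lower in shoots: SWEET16 had 37.7 and 40.1 against 157 and 188 in roots (-1.88 ± 0.21), and SWEET17 217 and 252 against 319.7 and 350.2 (-0.50 ± 0.14). The call of SWEET17 was lost without shoots 12 h replicate 1 (-0.39).

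On the root side, the largest differences belonged to genes close to the lowest signals in shoots. The 12 largest, among probe sets with 1 gene, all had both shoot signals under the 40th percentile. AT4G33720 had 1.11 and 1.90 in shoots against 1395 and 1231 in roots (-6.76 ± 0.28, adjusted p = 2.24e-14). AT4G15390 had 1.78 and 13 against 1759 and 1439 (-6.54 ± 0.22), and AT5G66985, of the low oxygen list described below, 0.789 and 0.740 against 1039 and 822 (-6.35 ± 0.26). The others were AT4G39675 (-6.61), AT1G26250 (-6.45), AT4G30170 (-6.24), AT4G22212 (-6.05), AT3G01190 (-6.03), AT1G33055 (-5.83), AT1G52070 (-5.83), AT5G10040 (-5.74) and AT2G21045 (-5.69). All 12 kept their call in each alternative run. AT4G30170 and AT3G01190 are loci of the class III peroxidase list.

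Class III peroxidases, secreted enzymes that cross-link wall polymers and lignin or release reactive oxygen, were the widest root group. Of 60 loci 45 had a probe set and 39 were measured. Of these 28 were called lower in shoots, 5 higher and 6 not, with a median of -2.24, beside 45.3% called lower and 25.4% called higher among all probe sets. Prx37 had 11.2 and 12.9 in shoots against 743 and 667 in roots (-4.98 ± 0.41). AT5G64100 had 21.2 and 23.4 against 1208 and 1249 (-5.23 ± 0.21), and AT3G01190 2.94 and 1.1 against 874 and 764 (-6.03 ± 0.16). AT1G71695 was the highest in shoots, with 681 and 677 there against 107 and 142 in roots (2.36 ± 0.19). The count of 5 higher members fell to 3 without shoots 12 h replicate 2 or roots 12 h replicate 1.

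Markers of root cell types differed by smaller amounts, and their signals in roots were modest. EXPA7 and EXPA18, expansins of growing root hairs, differed by -1.60 and -1.52, EXPA7 with 9.34 and 9.12 in shoots against 60.1 and 40.7 in roots. GSO1, a receptor kinase needed for a closed Casparian strip, had 34.9 and 38.5 against 149 and 155 (-1.78 ± 0.16). LBD16 and LBD29, factors of lateral root initiation, differed by -1.22 and -1.25, and BBM, a factor of the root meristem, by -1.26, with 1.18 and 1.02 in shoots against 17.4 and 17.6 in roots. The root signals of BBM and LBD29 are themselves below the 40th percentile, so these sizes are not firm. Of the 4 measured genes for iron and coumarins 1 was higher in shoots, 1 lower and 2 not called (median 0.20). The lower one was AT3G13610, with 15.6 and 8.5 in shoots against 1249 and 937 in roots (-5.60 ± 0.29).

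The counts of the families that follow stand beside 45.3% lower and 25.4% higher in shoots among all probe sets. Several have shares near these, so their counts describe the members only. Of 14 measured expansins, which loosen walls, 9 were called lower in shoots and 1 higher (median -0.99): EXPA15 at -1.89 and EXPA4 at -1.76, against EXPA8 at 2.65. Of 17 TBL proteins, which acetylate wall polymers, 11 were lower and 4 higher (median -0.92), from -2.74 for TBL36 to 3.19 for TBL26. Of 8 tetraspanins, membrane scaffold proteins, 6 were lower and 2 higher, TET6 with 13.6 and 20.4 in shoots against 201 and 241.4 in roots (-3.07 ± 0.18) and TET2 at -2.67. Of 7 RALF-like peptides, secreted signals that alkalinise the wall, 4 were lower and 2 higher, between -3.21 for RALFL27 and 1.54 for RALFL34. RALFL32 had 86.3 and 81.6 in shoots against 567 and 599.7 in roots (-2.65). These families were grouped by the prefix of their symbols.

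Several families of defence and secondary metabolism split between the organs. Among 5 plant defensins, small antifungal peptides, 3 were higher and 2 lower in shoots. PDF1.2b, a defensin induced through jasmonate and ethylene, had 854 and 1329 in shoots against 4.63 and 6.53 in roots (6.05 ± 1.22), and its near copy PDF1.2 had 339 and 682 against 9.30 and 10.3 (4.59 ± 1.0). Both errors are large, and near-identical copies may share probe signal. PDF2.5 went the other way, with 3.65 and 2.75 in shoots against 414 and 369 in roots (-4.86 ± 0.17). PDF2.1 was lower in shoots too (-2.49), and PDF1.4 higher (3.01).

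UDP-glycosyltransferases, which attach sugars to hormones and phenolics, had large differences in both directions. Of 39 measured, 15 were called higher and 20 lower in shoots (median -0.42), beside 25.4% and 45.3% of all probe sets. UGT88A1 had 561 and 645 in shoots against 25.8 and 29.2 in roots (4.0 ± 0.21), and UGT76E11 differed by 3.71. UGT72E2 and UGT72E1, which glucosylate the building blocks of lignin, differed by -3.73 and -2.34, UGT72E2 with 52.3 and 36.8 in shoots against 764 and 672 in roots. UGT71C1 was at 1.59 and 1.78 in shoots against 135 and 106 in roots (-3.40), and UGT76B1 at -3.65.

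Of 14 measured P450 monooxygenases with a CYP symbol, 8 were higher and 3 lower in shoots (median 1.26). The count of 3 fell to 1 without shoots 12 h replicate 1 or roots 12 h replicate 2. CYP71B5 (3.32) and CYP71B24 (3.01) stood opposite CYP71B37 (-3.13 ± 0.15), which had 14.4 and 13.4 in shoots against 208 and 201 in roots. Among 10 tau glutathione S-transferases, detoxifying enzymes, 3 were higher and 6 lower: GSTU16 had 238 and 265 in shoots against 11 and 18.1 in roots (3.39), while GSTU22 had 19.0 and 11.2 against 288 and 304 (-3.59). GSTU18, GSTU20 and GSTU25 lay at 2.81, 1.85 and -2.84.

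Of 9 measured beta-glucosidases with a BGLU symbol, 4 were higher and 3 lower in shoots. BGLU44 had 1023 and 879 in shoots against 62.5 and 72.0 in roots (3.62 ± 0.20), BGLU33 and BGLU40 differed by 3.21 and 3.12, and BGLU46, which splits monolignol glucosides, by -2.93. Of 19 serine carboxypeptidase-like proteins 9 were higher and 6 lower (median 0.01), from -2.80 for scpl31 to 2.16 for scpl42. Of 4 jacalin lectins JAL33, JAL34 and JAL22 were lower (-3.51, -2.47 and -1.45) and JAL23 higher (2.96). JAL34 was strong in both organs, with 749 and 562 in shoots against 4002 and 3318 in roots.

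Among the 3 measured glucosinolate genes, all lower in shoots, were PYK10, a beta-glucosidase of endoplasmic reticulum bodies, with 1398 and 1922 in shoots against 3993 and 3491 in roots (-1.18), BCAT4, the first enzyme of methionine chain elongation (-1.32), and UGT74B1, which glucosylates their precursor (-0.77). Of 5 genes of jasmonate synthesis and turnover 4 were higher in shoots, led by JRG21 with 113 and 249.7 against 2.45 and 11.7 in roots (3.39 ± 0.65), while OPCL1, an acyl-CoA ligase of jasmonate synthesis, was not called (-0.28). JMT, which methylates jasmonate, was among the 4 (0.95), and its call was lost without shoots 12 h replicate 1 (0.55). DFR, of anthocyanin synthesis, was higher in shoots (1.22 ± 0.29).

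The organ difference at 12 h was then set against its mean over the other 6 times, in the same fit. Limma called 3714 of 16263 probe sets (22.8%) as different, 1999 (12.3%) with a higher and 1715 (10.5%) with a lower value at 12 h. Of these, 525 and 477 were at least 2-fold, with a median change of 0.02 among the whole 16263. Set against their own other times, shoots at 12 h were called in 4273 probe sets (26.3%) and roots in 2625 (16.1%). Of the 1999 with a higher organ difference, shoots were called higher in 1299 and roots called lower in 633. Of the 1715 with a lower one, shoots were called lower in 1047 and roots called higher in 647. In 536 of all probe sets both organs were called as changed in the same direction at 12 h, and in 265 in opposite directions. The count of 3714 moves with the 12 h arrays: it was 2206 without roots 12 h replicate 1 and 2264 without shoots 12 h replicate 2. Against 24 h alone it was 1942 and against 6 h alone 1337. Both comparisons use the same arrays at 12 h.

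**Figure D3:**
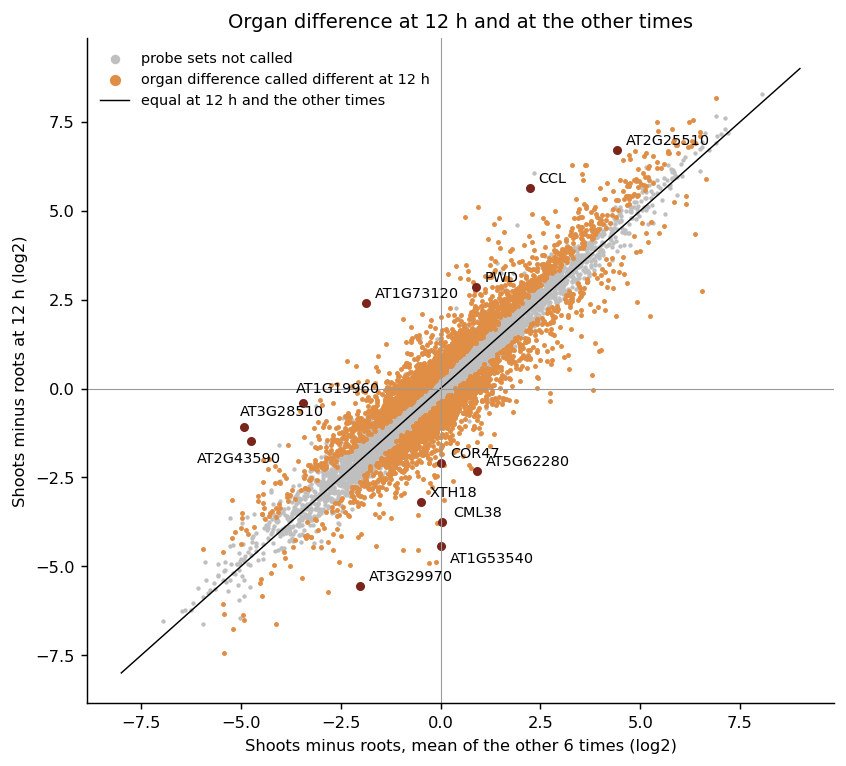
Shoots minus roots at 12 h (y axis) against the mean of the same difference over the other 6 times (x axis), both log2, for 16263 probe sets; orange points passed the test of the difference between both values and 13 genes are labelled. Most points follow the line of equality, and AT1G73120 lies in the quadrant where roots are higher at the other times and shoots at 12 h.

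Several genes with a higher organ difference at 12 h had low roots there. AT3G28510 had 8.81 and 15.7 in 12 h shoots against 30.8 and 43.9 in 12 h roots, while the other 12 root arrays spanned 274 to 591 and the other shoot arrays 0.445 to 4.21. Its organ difference was -1.07 at 12 h against -4.94 at the other times, a change of 3.87 ± 0.28 (adjusted p = 8.93e-09), and roots alone changed by -2.98 against their other times. AT2G43590 had 60.1 and 58.2 in 12 h shoots against 170.4 and 195 in 12 h roots, where the other root arrays spanned 418 to 1803 (change 3.28 ± 0.49). AT2G25510, one of the strongest shoot genes, had roots at 47.8 and 44.6, below the 138 to 306 of the other root arrays (change 2.3 ± 0.15). AT5G52710 showed the same pattern in roots (17.4 and 18.0 against 40.5 to 251, change 2.29). In these 4 genes both root arrays at 12 h lie below all other root arrays.

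CCL, known for a transcript whose stability changes through the day, had 3044 and 3072 in 12 h shoots against 28.3 and 86.8 in 12 h roots. Its organ difference was 5.64 at 12 h against 2.23 at the other times, a change of 3.41 ± 0.46. Shoots were high at 3, 6 and 12 h: the mean signals over 0.25, 0.5, 1, 3, 6, 12 and 24 h were 411, 323, 225, 2900.4, 4294, 3058 and 717. In roots the means were 100.2, 104, 122, 222, 453, 57.6 and 154, highest at 6 h and lowest at 12 h. Roots at 12 h were called lower than at their other times, but not without roots 12 h replicate 1 (-0.82).

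AT1G19960 lay close together in both organs at 12 h, with 362 and 300.2 in shoots against 404 and 477 in roots, where the other times had a difference of -3.44 (change 3.04 ± 0.17). Against their other times its shoots changed by 1.98 and its roots by -1.06. AT4G16146 changed by 2.63, AT4G12500 by 2.86, AT3G18250 by 2.70, AT4G12490 by 3.34 and AT2G43530 by 2.65. Neither AT4G12490 (0.71 against 24 h alone) nor AT4G12500 was called against 24 h or 6 h alone. AT4G16146 (0.27) and AT2G43530 (1.63) were not called against 6 h alone, nor AT3G18250 (1.93) against 24 h alone. Shoot means of AT4G12490 were 586 at 12 h and 596 at 24 h, those of AT4G16146 381 at 6 h and 367 at 12 h. The neighbours AT4G12490 and AT4G12500 may share probe signal. The change of AT4G12490 was not called without shoots 12 h replicate 2 (3.06), nor that of AT2G43530 without roots 12 h replicate 1 (2.31). Of the 12 largest changes of this kind, 9 had shoots called above and 9 roots called below their other times.

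AT1G73120 was the 1 gene whose organ order was reversed with at least a 2-fold difference on both sides. It had 93.9 and 341 in 12 h shoots against 28.5 and 23.1 in 12 h roots, a difference of 2.40 ± 0.43 at 12 h against -1.87 at the other times (change 4.27 ± 0.46, adjusted p = 5.67e-06). Both 12 h shoot arrays lie above all other shoot arrays, which span 3.41 to 33.3, yet they differ from each other by more than the root arrays do. In roots the means over the 7 times were 210.4, 221, 126, 9.73, 5.4, 25.8 and 89.2, so roots were low at 3, 6 and 12 h, and lowest at 6 h. Reversed order, with all 3 tests passed, was found for 284 probe sets (1.75%), 128 with shoots higher and 156 with shoots lower at 12 h, and for 145 genes.

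Among the genes given by group above, enzymes of starch breakdown had a larger organ difference at 12 h than at the other times. PWD had 0.88 at the other times, a change of 1.98 ± 0.17 (adjusted p = 6.88e-08), and DPE1 0.34, a change of 1.72 ± 0.18. Shoots of both were called higher at 12 h than at their other times, and roots were not called. The means of PWD were 105, 117, 93.4, 282, 1051, 817 and 155 in shoots and 79.0, 77.7, 91.6, 127, 142, 103 and 108 in roots over the 7 times. These shoot signals were already high at 6 h, and against 6 h alone PWD stood at 0.05 and DPE1 at -0.13. SBE2.2 and APL3 were not called as different (0.33 and 0.00). PORB changed by 1.23, and by -0.58 against 6 h alone.

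The antenna genes LHCB4.2 and LHCB4.3 went opposite ways within shoots. LHCB4.3 had 975 and 1030.1 in 12 h shoots, above the 151 to 746 of the other shoot arrays (1.39 ± 0.14), and its organ difference changed by 1.45. LHCB4.2 had 1569.8 and 1507 in 12 h shoots, below the 3887 to 5961 of the others (-1.61 ± 0.15). LHCB4.1 was not called in shoots at 12 h against the other times (-0.39). In roots LHCB4.3 lay at 17.9 and 20.3 and was not called as changed (-0.06).

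Serine carboxypeptidase-like proteins, acyltransferases and peptidases of the vacuole, shifted towards shoots at 12 h. Of 19 measured, 10 had a higher organ difference than at the other times and 1 a lower one, beside 12.3% and 10.5% of all probe sets. scpl35 had 311 and 376 in 12 h shoots against 71.2 and 82.7 in 12 h roots, with a difference of 2.01 against 0.02 at the other times (change 1.99 ± 0.19). SCPL49 had 725 and 593 in shoots against 462 and 506 in roots, where the other times had -1.29 (change 1.73 ± 0.18). The count of 10 was 6 without shoots 12 h replicate 1, 5 against 24 h alone and 1 against 6 h alone.

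Of the 39 class III peroxidases 11 had a higher and 4 a lower organ difference at 12 h than at the other times, beside 12.3% and 10.5% of all probe sets. AT5G06730 had 7.87 and 7.68 in 12 h shoots against 30.1 and 22.2 in 12 h roots, whose other arrays spanned 48.9 to 117 (change 1.93 ± 0.22), and AT4G36430 had roots of 260.3 and 198, below their other 427 to 943 (change 1.5 ± 0.27). AT5G19890 went the other way, with roots of 371 and 366 above their other 70.1 to 263 (change -1.0 ± 0.26). AT2G37130 changed by 2.04. The 11 were 6 or 7 without any 1 of the 4 arrays at 12 h, and 2 and 3 against 24 h and 6 h alone. The 4 were 2 without shoots 12 h replicate 2 or roots 12 h replicate 2. Of other families, BGLU44 (1.85 ± 0.21), PDF1.4 (2.19), CYP71B6 (1.44) and the transcription factor WRKY6 (1.01) had a higher organ difference at 12 h than the mean of the other times. PDF1.4, AT2G37130 and AT4G36430 were called against neither 24 h nor 6 h alone. BGLU44 (0.48), WRKY6 (0.49) and AT5G19890 (-0.73) were not called against 6 h alone, nor CYP71B6 (0.83) against 24 h alone.

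In the opposite direction, small heat shock proteins were high in roots at 12 h. These chaperones bind unfolding proteins, and their list here was written after values had been seen, so its counts are a description. Of 17 loci 9 were measured, of which 7 were lower in shoots than in roots at 12 h and 1 higher, with a median of -2.24 against -0.27 at the other times. These 7 also had a lower organ difference than at the other times, beside 10.5% of all probe sets, and were higher in roots at 12 h than at the other root times. The count of 7 was 5 with log2(signal + 1), 6 against 24 h alone and 1 against 6 h alone. AT1G53540 had 14.6 and 7.89 in 12 h shoots against 606 and 349 in 12 h roots, where the other root arrays spanned 9.91 to 239.7 (change -4.44 ± 0.72, adjusted p = 0.000397). AT2G29500 had 20.7 and 28.2 against 569.9 and 382 (change -3.68 ± 0.75), AT1G54050 48.8 and 66.5 against 383 and 248 (change -2.99 ± 0.64), and ATHSP22.0, of the endoplasmic reticulum, 15.1 and 17.5 against 196 and 128 (change -2.38 ± 0.44).

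Root replicate 1 was the higher of both root arrays in 7 of the 9 small heat shock genes, and without it 4 members were called for a lower organ difference and 6 for a higher root level. Over the 7 times the root means of AT1G53540 were 13.1, 11.8, 31.7, 119.7, 128, 478 and 28.4, and the shoot means 17.3, 16.7, 57.4, 96.2, 43.7, 11.3 and 20.8. Shoots were thus highest at 3 h and roots at 12 h. The 2 root arrays at 6 h stand apart: AT1G53540 had 15.3 and 239.7 there and AT2G29500 21.8 and 366, and array 2 was the higher in 7 of the 9 small heat shock genes and 15 of the 17 low oxygen genes described next. AT4G21870 was the exception with 233 and 367 in shoots against 20.8 and 42.0 in roots (2.90), and AT5G47600 was not called (-0.29).

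Genes of the low oxygen response, which serve fermentation and oxygen sensing, were also high in roots. This list too was written after values had been seen. Of 37 loci 17 were measured, with 15 lower in shoots at 12 h, 0 higher and 2 not called (median -3.54, against -2.02 at the other times). The organ difference was lower than at the other times for 10 of 17, beside 10.5% of all probe sets, and 10 were higher in roots at 12 h than at the other root times. PDC2, a pyruvate decarboxylase of ethanol fermentation, had 400.3 and 324 in 12 h shoots against 1217 and 1090.1 in 12 h roots (-1.65 ± 0.26). It was above the mean of its other times in both organs, by 1.39 in shoots and 2.02 in roots. Its shoot mean was already 397 at 6 h, beside 362 at 12 h. The organ difference of PDC2 was not called as changed (-0.63).

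AT3G29970 had 7.61 and 8.12 in 12 h shoots against 992 and 744 in 12 h roots (-5.55 ± 0.53), and the other root arrays spanned 21.8 to 273 (change -3.53 ± 0.57). AT5G10040 had 4.3 and 1.02 against 783 and 617 (change -2.91 ± 0.70), and AT2G17850 30.7 and 20.1 against 892 and 657 (change -2.81 ± 0.60). In each of these 3 genes both 12 h root arrays are above all other root arrays. CML38, a calmodulin-like protein on this list, had 13 and 8.68 in shoots against 319.9 and 244 in roots (change -3.80 ± 0.85). Against the mean of their other times its shoots were called lower (-2.61), and its roots were not called (1.19). Neither CML38 nor AT5G10040 was called against 24 h or 6 h alone. The shoot means of CML38 over the 7 times, 1013, 877, 92.1, 42.4, 25.7, 10.8 and 20.4, were highest at 0.25 h. Its root means were 106, 100.5, 325, 172, 76.3, 282 and 139.5, highest at 1 h. Root replicate 1 was the higher root array in 15 of the 17 members. Without it 5 had a lower organ difference and 4 a higher root level. Without shoots 12 h replicate 1 and 2 the first count was 5 and 6. It was 5 with log2(signal + 1), 5 against 24 h alone and 4 against 6 h alone, where AT3G29970 had root signals of 24.9 and 143 and AT5G10040 of 24.7 and 252.

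**Figure D4:**
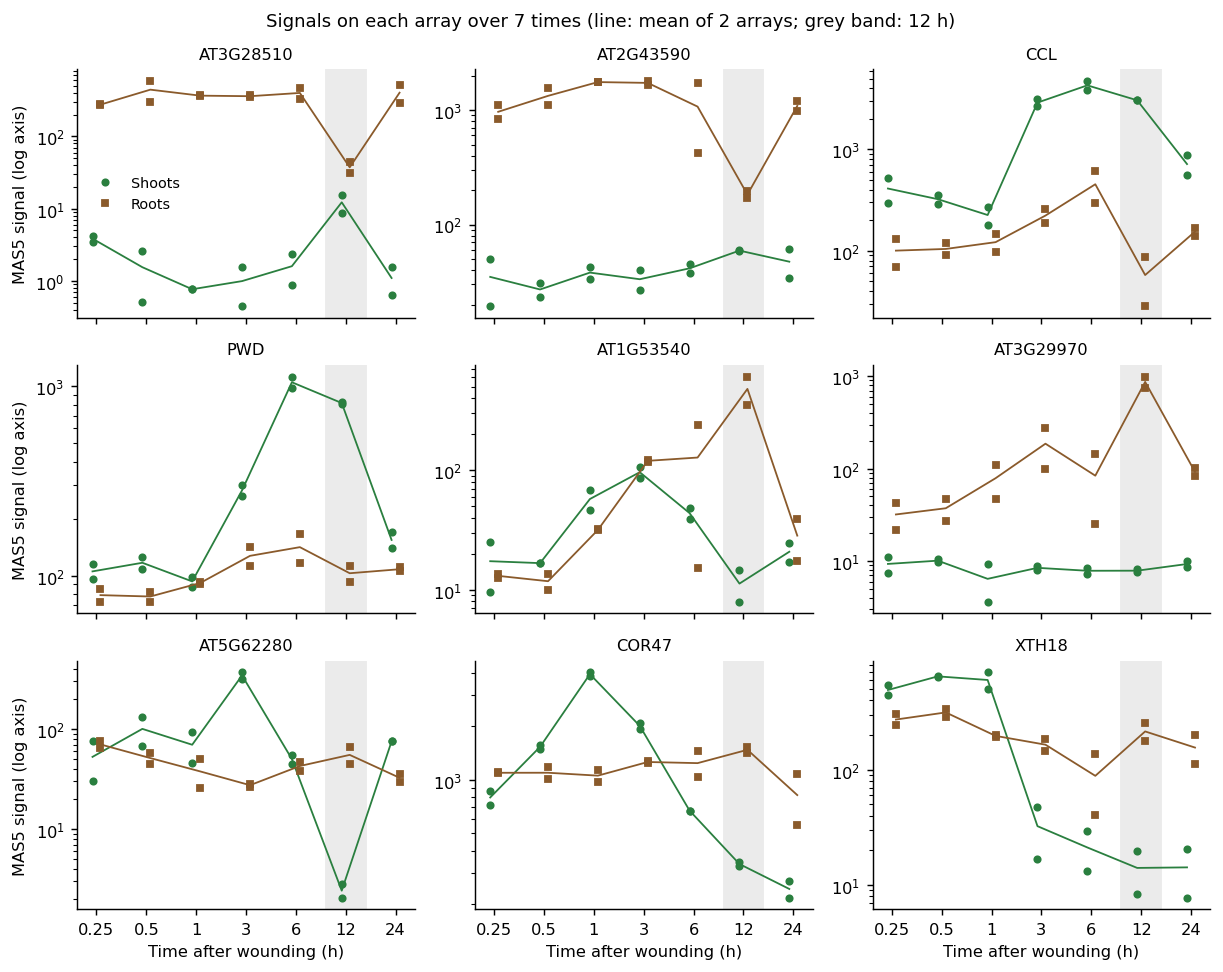
MAS5 signals (log axis) of 9 genes on each array over the 7 times after wounding, shoots as circles and roots as squares; lines join the means of 2 arrays and the grey band marks 12 h. Roots drop at 12 h in AT3G28510, AT2G43590 and CCL and peak there in AT1G53540 and AT3G29970, while shoots are lowest at 12 h in AT5G62280.

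Other genes with a lower organ difference at 12 h had low shoot signals there. AT5G62280 had 2.79 and 2.05 in 12 h shoots against 44.8 and 65.4 in 12 h roots, while the other shoot arrays spanned 30.3 to 369. Its difference of -2.31 at 12 h stood against 0.91 at the other times (change -3.22 ± 0.35). AT1G76240 had 13.9 and 8.37 in shoots, below the 80.2 to 261 of the others, and roots of 90.8 and 81.9 (change -2.87 ± 0.22). In both genes the 2 shoot arrays at 12 h lie below all other shoot arrays.

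XTH18, an enzyme that cuts and rejoins xyloglucan in the wall, had 19.8 and 8.43 in 12 h shoots against 252 and 177 in 12 h roots (-3.20 ± 0.45, change -2.71 ± 0.49). Its shoot means over the 7 times were 491, 644, 599, 32.4, 21.2, 14.1 and 14.3, high within the first hour and low from 3 h on, and against 24 h alone the change was -0.47 and not called. Of 7 measured XTH enzymes 4 were lower and 2 higher in shoots at 12 h (median -1.82), and 4 had a lower organ difference than at the other times, a count that was 2 without shoots 12 h replicate 1 or roots 12 h replicate 1. Among all probe sets 45.3% were called lower and 25.4% higher in shoots, and 10.5% had a lower organ difference than at the other times. XTH32 differed by 1.07 at 12 h against 2.66 (change -1.59 ± 0.24), and XTH20 and XTH21 by -2.61 and -1.82. AT2G34930 (-2.69) and AT2G36220 (-2.55) changed in the same way as XTH18, with higher shoot signals earlier, and neither was called against 24 h or 6 h alone.

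Dehydrins, which protect cells against drying and cold, also stood lower in shoots at 12 h. COR47 had 345 and 326 in 12 h shoots against 1539 and 1416 in 12 h roots (-2.1 ± 0.20), where the mean difference at the other times was 0.01 (change -2.12 ± 0.22). LTI30 had 29.0 and 29.9 against 743 and 837 (-4.32 ± 0.33, change -1.5 ± 0.35). Shoot means of COR47 over the 7 times were 796, 1536, 3942, 2016, 671, 336 and 243, so the other times hold a high phase at 0.5 to 3 h, and against 24 h alone COR47 changed by -0.46, without a call, and LTI30 by 0.34. COR15A and COR15B, cold-induced proteins of the chloroplast, were higher in shoots at 12 h, by 2.84 and 2.56, with 123 and 88.5 against 3.43 and 7.66 in roots for COR15A. The organ difference of COR15A was nonetheless lower at 12 h than at the other times (change -1.47). Its shoot means were 3473 at 3 h and 106 at 12 h, and against 24 h alone the change was 0.85, without a call.

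Among signalling genes, WRKY22 and WRKY53, stress-related transcription factors, had an organ difference of -0.69 and -0.92 at 12 h against 0.56 and 0.13 at the other times (changes -1.25 and -1.05). RALFL22 and RALFL24 changed by -1.29 and -0.98, SWEET16 and SWEET17 by -0.98 and -0.82, and BCAT4 by -1.19. Against 24 h alone WRKY53 (-0.017), SWEET16 (-0.55) and SWEET17 (-0.53) were not called. Against 6 h alone WRKY53 (-0.86), WRKY22 (-0.27) and RALFL22 (-0.50) were not called. RALFL24 had 71.8 and 80.8 in shoots against 134 and 125 in roots, and its organ order was the opposite at the other times (0.29). Evening clock genes were present in both organs. Of 3 measured, 1 was called higher and 2 lower in shoots, beside 25.4% and 45.3% of all probe sets. GI, a clock protein, had 64.7 and 42.2 in 12 h shoots against 205 and 181 in 12 h roots (-1.69 ± 0.20). Its shoot means at 0.25, 6, 12 and 24 h were 50.6, 372, 53.4 and 67.1, and its root means 210, 353, 193 and 196. GI was thus not high at 12 h in either organ. COR27 had 114 and 92.5 in 12 h shoots against 45.3 and 62.3 in 12 h roots (0.83 ± 0.21). Both organs were far above the COR27 levels at 0.25 to 3 h and at 24 h. The call of COR27 between the organs was lost with log2(signal + 1).

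Of the 24 genes named for the largest changes against the other times, 16 were also called against 24 h alone and 13 against 6 h alone. Both held for 12: AT1G73120, AT3G28510, CCL, AT2G43590, AT1G19960, AT2G25510, AT5G52710, AT2G17850, AT1G76240, AT5G62280, AT3G29970 and AT1G53540. Of the 174 genes named, 86 passed the test against the mean of the other 6 times, and 23 of these were called against both 24 h and 6 h alone. Beside the 12, these were scpl35, AT5G06730, AT5G38980, AT2G41090, LHCB4.3, AT3G48420, AT1G32470, AT4G22212, AT5G66985, RALFL24 and BCAT4. With 1 shoot array at 12 h left out, the call was lost for 21 (replicate 1) or 22 (replicate 2) of the 86. With 1 root array at 12 h left out it was lost for 24 (replicate 1) or 12 (replicate 2).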

How the data were processed

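The authors deposited 1 table of MAS5 intensities (linear signals per probe set), and MAS5 is named in the submitters' processing notes, its version not given in the sources used here. It holds 22810 probe sets on 28 arrays, 2 in each of 14 groups, and 64 control probe sets were left out. The arrays were already scaled alike and were used as deposited. Signals were set on the scale log2(signal + 10.7) with an offset at the 25th percentile of the table. The filter kept 16263 probe sets, those above the 40th percentile of their array in both replicates of 1 group or more, and 8878 of them have 1 gene.

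All 28 arrays entered 1 fit in limma 3.58.1 (R 4.3.3) with 1 mean per group, 14 residual degrees of freedom, a trended and robust empirical Bayes step and Benjamini-Hochberg adjustment over all probe sets kept. In simulated data the organ difference at 12 h was called for 86 of 100 probe sets changed by 1 and 99 of 100 changed by 2 on the log2 scale, with 12 false calls. For its change against the other times these were 77, 98 and 7. The simulated probe sets had normal noise and no organ difference apart from the changes set in 12 h shoots. In the data most probe sets differ between the organs, so these rates need not carry over.

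In the annotation used, 13513 probe sets stand for 1 gene and 503 for several, while 8794 have no name here. Symbols are those of RefSeq (13436 matched by locus), and a gene without one is given by locus. Named were the 12 largest organ differences in each direction whose arrays did not overlap, the 12 largest changes against the other times in each direction with both replicates outside the range of those times, genes with reversed order, and members of gene lists. For a gene with several probe sets the brightest stands, and 12 genes had probe sets of opposite sign. Members and lists were chosen with earlier results of these data known, families by symbol prefix. Alternatives were the offset, filter, normalization, moderation, threshold, reference times, replicate block and leaving out each array.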

Additional observations from a re-analysis of the deposited data

Results flagged for a closer look

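The test of a change in the organ difference between 12 h and the other 6 times passed for 3714 probe sets, and for 86 of the 174 genes named here. The values that follow are that change on the log2 scale, positive where the organ difference was higher at 12 h. Without 1 or another of the 4 arrays at 12 h, 30 of the 86 were no longer called.

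The organ difference was higher at 12 h for 46 of the 86, led by AT1G73120 (4.27), AT3G28510 (3.87), CCL (3.41), AT4G12490 (3.34), AT2G43590 (3.28), AT1G19960 (3.04), AT4G12500 (2.86), AT3G18250 (2.70), AT2G43530 (2.65), AT4G16146 (2.63), AT2G25510 (2.3) and AT5G52710 (2.29). Smaller changes in this direction were those of PDF1.4 (2.19), AT2G37130 (2.04), scpl35 (1.99), PWD (1.98), AT5G06730 (1.93), BGLU44 (1.85), AT5G38980 (1.81), SCPL49 (1.73), DPE1 (1.72), AT4G36430 (1.5), AT2G41090 (1.48) and LHCB4.3 (1.45). Next came CYP71B6 (1.44), UGT76B1 (1.32), CYP71B24 (1.3), ECS1 (1.25), PORB (1.23), WRKY6 (1.01), GSTU16 (0.97), AT3G48420 (0.91), UGT76E11 (0.88), PSBW (0.87), PSAE-1 (0.86) and AT1G32470 (0.84). The smallest among the 46 were those of COR27 (0.83), PRK (0.71), GSTU22 (0.70), HPR (0.67), PYK10 (0.64), FMA (0.62), AT1G71695 (0.59), scpl42 (0.56), CYP71B5 (0.48) and AT1G11860 (0.46).

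It was lower at 12 h for the other 40, led by AT1G53540 (-4.44), CML38 (-3.80), AT2G29500 (-3.68), AT3G29970 (-3.53), AT5G62280 (-3.22), AT1G54050 (-2.99), AT5G10040 (-2.91), AT1G76240 (-2.87), AT2G17850 (-2.81) and XTH18 (-2.71). Next in size were the changes of AT2G34930 (-2.69), AT2G36220 (-2.55), ATHSP22.0 (-2.38), COR47 (-2.12), XTH32 (-1.59), AT4G33720 (-1.55), LTI30 (-1.5), COR15A (-1.47), AT1G33055 (-1.35) and RALFL22 (-1.29). These were followed by WRKY22 (-1.25), BCAT4 (-1.19), OPCL1 (-1.13), EXPA15 (-1.05), WRKY53 (-1.05), AT5G19890 (-1.0), RALFL24 (-0.98), SWEET16 (-0.98), AT5G66985 (-0.92) and GSTU20 (-0.88). The smallest among the 40 were those of SWEET17 (-0.82), nad5 (-0.75), LHCB4.2 (-0.75), XTH20 (-0.74), ccb382 (-0.64), CYP71B37 (-0.63), nad9 (-0.61), AT4G22212 (-0.60), TET6 (-0.59) and ccb452 (-0.55).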

How the results depend on the processing

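The count of probe sets called between shoots and roots at 12 h, 11498, was 11198 after quantile normalization (4564 higher, 6634 lower), 11363 with log2(signal + 1), 12374 without the filter, 9412 with a filter at the 60th percentile, 11636 from the 4 arrays at 12 h alone and 9965 at an adjusted p under 0.01. The change against the other times, 3714, was 1942 against 24 h alone and 1337 against 6 h alone, so it depends on the times chosen. Against 24 h alone the sign turned for OPCL1 (0.76), PYK10 (-0.087), COR15A (0.85), LTI30 (0.34), CYP71B5 (-0.27) and ccb382 (0.0023), and against 6 h alone for PORB (-0.58), DPE1 (-0.13) and COR27 (-0.42). The cause was not tested.

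Leaving out 1 array at a time gave between 10306 and 10441 calls for the organ difference, 2206 (without roots 12 h replicate 1) to 4113 for its change against the other times, and 208 to 323 for reversed order. Shoots at 12 h against their other times had 2489 (without shoots 12 h replicate 1) to 4590 calls, and roots 773 (without roots 12 h replicate 1) to 2902. A group left with 1 array was assumed to vary like the others. Of 7838 values of single genes under an alternative, 7387 stayed on their side of the threshold. Another 440 kept direction but were no longer called, 2 became called and 9 reversed. A value called in neither setting counts among the 7387 even where its direction turned, such as that of nad4.

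Arrays with the same replicate number did not deviate together at 12 h (r = 0.03). With 2 arrays per group this cannot show whether equal numbers share plants or a batch, and the main fit left them unpaired. With a replicate block 11452 probe sets were called between the organs, 3649 for the change, 4193 in shoots, 2576 in roots and 277 reversed. Signals near the lower end limit the size of differences: of the at least 2-fold calls, 1178 higher in shoots had roots and 1315 lower had shoots below the 40th percentile on both arrays.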
